A study of Phanerodontia chrysosporium with 8 samples.

Results

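Some gene models of the white-rot fungus Phanerodontia chrysosporium received many reads that could not be placed on a single model, and their behaviour over fruiting is described here on both kinds of read. A model was taken where at least 20% of its reads, summed over all 8 libraries, were non-unique, with at least 100 total reads and at least 1 unique read. The rule took 185 of 13602 models. It used the summed read counts of the same libraries, so the share itself is a description and carries no test. The rule did not use the stage labels. A sum over all libraries can still be carried by the stage in which a model is high, so membership is not independent of stage.

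Messenger RNA of strain RP-78 was sequenced in vegetative mycelium (n = 3), in young fruiting bodies (n = 2) and in fruiting bodies that had begun to release spores (n = 3). The labels give the same growth protocol for all libraries. It names 7 days on cellophane-covered agar at 37 °C in darkness and then a move to a moist chamber with dim light at 25 °C. Whether the mycelium was collected before that move is not given in the labels, so stage and growth conditions cannot be told apart in comparisons with mycelium. The young fruiting body stands for initials that form a dense mat with a sharp edge. The libraries are called biological replicates without more detail, so p-values here cover only the spread among these libraries, which may be technical.

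White-rot fungi degrade lignin and cellulose with secreted enzymes, many of which are encoded by gene families that arose by duplication. Short reads from a stretch that is the same in several sequences cannot be assigned to one of them. A count of unique reads leaves such reads out and can understate a duplicated gene. A count of total reads keeps them but can credit a gene with the messenger of its copy. Which sequences share the reads was not analysed here, since the deposited files hold no sequences, and a shared read does not by itself show a near-identical copy. The files also do not pair the models with gene names, so models are given by ID and no function is assigned to them.

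The smallest library held 16144543 unique gene reads and the largest 35837246, with non-unique reads at 0.447 to 0.638% of the gene reads. The highest of these shares, 0.638%, belonged to fruiting body replicate 3. That library also stood apart in the stage comparisons below, and results that rest on it are given with and without it.

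The 185 models made up 1.49% of the 12388 models with at least 100 total reads. They held 0.628% of all gene reads but 508909 of the 966294 non-unique reads, which is 52.7%. Models under the 20% limit held 28.8% of the non-unique reads, and models with no unique read at all held 18.4%. Sharing was uncommon elsewhere, since 10507 of the other 12203 models with at least 100 reads had no non-unique read. Within the 185 models a few dominated, and the 10 with the most non-unique reads held 46.0% of the non-unique reads of the group.

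Their shares ran from 20.0 to 99.9%, with a median of 37.2%. Of the 185 models, 63 had a share from 20% to under 30%, 61 from 30% to under 50%, and 61 of 50% or more. The share was at or above 90% in 12 models. At the limit itself, model 1950079 (1182 bp) had 160 unique of 200 total reads, a share of 20.0%, and model 2973697 (645 bp) had 120944 of 151205, also 20.0%. Just outside, models 2986994 and 2968989 both stood at 19.97%.

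**Figure D1:**
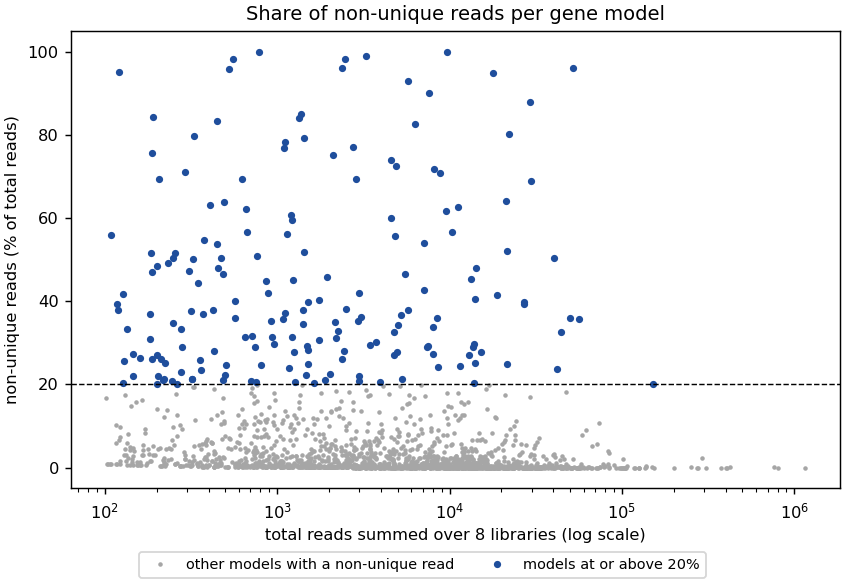
Each point is a gene model with at least 100 total reads, at least 1 unique read and at least 1 non-unique read, with its total reads over the 8 libraries (horizontal, log scale) against its non-unique reads in percent (vertical). The dashed line marks 20%; the 185 models on or above it range from 109 to 151205 total reads.

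The models were shorter and less abundant than the others. Their median length was 1010 bp against 1249 bp in the other models with at least 100 reads. The median of their mean level over the libraries was 7.47 RPKM (total reads per kilobase of model, scaled by the gene reads of the library) against 25.0 RPKM in the others. The length was divisible by 3 in 50.8% of the models and in 63.2% of the others. These are descriptions of a group chosen on read counts.

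The model with the most reads, 2973697, stood at 1296, 1402 and 1205 RPKM of unique reads (scaled with TMM factors, as are all RPKM values from here on) in mycelium replicates 1, 2 and 3. It stood at 1004 and 823 RPKM in young fruiting bodies and at 923, 768 and 810 RPKM in fruiting bodies. Every mycelium library was above every library of the fruiting stages, but neither comparison passed the test (edgeR quasi-likelihood, unique reads, adjusted p = 0.156 and 0.0518). With DESeq2 both did (adjusted p = 0.0473 and 0.00263), and with upper-quartile factors the second did (adjusted p = 0.0307, edgeR).

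Model 7453 (1680 bp) had 51997 total reads, of which 96.0% were non-unique. Its unique reads gave 6.15, 4.22 and 4.60 RPKM in mycelium, 5.17 and 7.92 RPKM at the young stage and 8.37, 12.2 and 7.78 RPKM in fruiting bodies. Its total reads gave 143, 95.2 and 96.5 RPKM in mycelium, 111 and 192 RPKM at the young stage and 194, 272 and 337 RPKM in fruiting bodies. On either kind of read every fruiting body library was above every mycelium library. The rise passed the test on unique reads (0.92 ± 0.29 on the log2 scale, SE, adjusted p = 0.0413, edgeR) and on total reads (1.26 ± 0.31, SE, adjusted p = 0.0168, edgeR). The call on unique reads was lost without mycelium replicate 1, 2 or 3 (adjusted p = 0.0588, 0.141 and 0.129), without young fruiting body replicate 2 (0.0531) and without fruiting body replicate 1 or 2 (0.0659 and 0.154, all edgeR). On total reads it was lost without mycelium replicate 2 or 3 (adjusted p = 0.0715 and 0.0678, edgeR). With the flowcell as a covariate the log2 fold changes were 1.29 and 1.28, and both calls were lost (adjusted p = 0.0657 and 0.105, edgeR). The call on unique reads was also lost with upper-quartile factors (0.0642) and with only the 2 stages compared in the fit (adjusted p = 0.0521, all edgeR).

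Models 3002795 (1110 bp, 56766 total reads, 35.7% non-unique) and 6737 (792 bp, 50291 total reads, 36.1% non-unique) passed the test in no comparison with mycelium. On unique reads model 3002795 stood at 213 ± 75.1 RPKM in mycelium (SD, n = 3), 191 ± 88.3 at the young stage (SD, n = 2) and 134 ± 41.6 in fruiting bodies (SD, n = 3). Model 6737 stood at 179 ± 43.3, 277 ± 19.3 and 239 ± 47.8 RPKM in the same stages. The spread within stages was wide in both, and the smallest adjusted p of the 2 models was 0.111 (edgeR, model 6737, young fruiting body against mycelium).

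Reads were next summed over the group. Non-unique reads of the 185 models took 0.251 ± 0.0278% of gene reads in mycelium (SD, n = 3). They took 0.295 ± 0.00295% at the young stage (SD, n = 2) and 0.318 ± 0.0215% in fruiting bodies (SD, n = 3). Every fruiting body library was above every mycelium library (two-sided exact permutation p = 0.1, the smallest that 3 against 3 libraries allow). The same held for the young fruiting bodies against mycelium and for the fruiting bodies against the young fruiting bodies (exact permutation p = 0.2 each, the smallest for 3 against 2). The last of these separations rested on model 7453, which had the most non-unique reads. Without it the young stage stood at 0.275 and 0.265% and fruiting bodies at 0.274, 0.266 and 0.280%, which overlap, and the difference of the means went from 0.0231 to 0.0035 percentage points. Both stages still lay above mycelium, at 0.247, 0.205 and 0.249%. Non-unique reads of all models were ordered alike, with 0.480 ± 0.0285, 0.564 ± 0.0173 and 0.588 ± 0.0433% of gene reads in the 3 stages (SD). As a share of all non-unique reads the group held 52.3 ± 2.99, 52.3 ± 2.13 and 54.1 ± 0.595% (SD, exact permutation p = 1, 0.6 and 0.5 for young stage against mycelium, fruiting body against young stage and fruiting body against mycelium). The unique reads of the models took 0.324 ± 0.0265, 0.378 ± 0.00388 and 0.359 ± 0.0169% of all unique reads in these stages (SD). Here mycelium and fruiting bodies overlapped, and the exact permutation p was 0.2 in each of the 3 comparisons. No such comparison can reach 0.05 with this number of libraries.

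**Figure D2:**
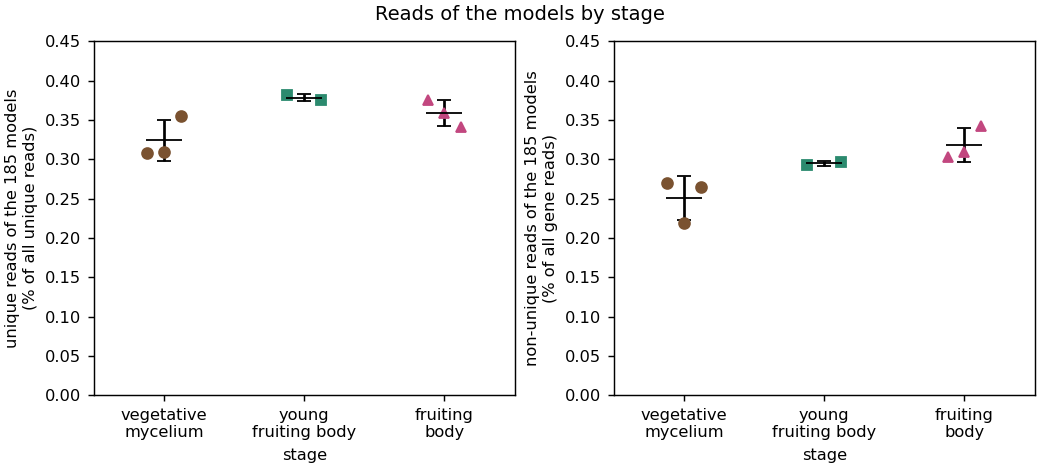
Points are libraries, horizontal bars the stage mean and whiskers the SD; the left panel gives unique reads of the 185 models in percent of all unique reads, the right panel their non-unique reads in percent of all gene reads. On the right the mycelium libraries lie at 0.219 to 0.269% and the fruiting body libraries at 0.303 to 0.342%.

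Young fruiting bodies were set against mycelium for the onset of fruiting. On unique reads 30 of 176 tested models of the group rose and 8 fell (edgeR quasi-likelihood test on the whole table, Benjamini-Hochberg adjusted p below 0.05). The other 9 had too few unique reads for the filter on low counts. Among all 12510 models tested, 15.0% rose and 10.9% fell, 26.0% in all. In the group 17.05% rose and 4.545% fell, 21.6% in all. Its share of calls and of rises lay near the background, while its share of falls was lower. That difference was not tested. The median log2 fold change of the tested models was 0.09, against -0.005 over all models. On total reads all 185 were tested, and 34 rose and 11 fell, where 15.0% and 10.9% of 12584 models did, or 25.9% in all. The count on unique reads was 22, 20 and 21 when mycelium replicate 1, 2 or 3 was left out. It was 11 and 18 when replicate 1 or 2 of the young stage was left out. On total reads these counts were 27, 23, 24, 14 and 23. All models moved in the same way, with 17.1, 15.3, 16.2, 8.37 and 12.8% called on unique reads.

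Model 2971419 (567 bp, 23.7% non-unique) stood at 4.02, 5.40 and 5.59 RPKM of unique reads in mycelium replicates 1, 2 and 3. It stood at 683 and 466 RPKM in young fruiting bodies and at 605, 533 and 240 RPKM in fruiting bodies. The stages of fruiting lay far above mycelium without overlap, with fruiting body replicate 3 the lowest of them. Its rise in young fruiting bodies was 6.84 ± 0.45 on the log2 scale for unique reads (SE, adjusted p = 7.91e-05, edgeR) and 7.13 ± 0.46 for total reads (SE, adjusted p = 7.93e-05, edgeR). In mycelium its share of non-unique reads was only 5.56 to 7.50%, under the limit of the rule. It is in the group through its fruiting libraries, so this rise is not independent of how the group was chosen.

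Model 2984156 (797 bp, 34.9% non-unique) had 3, 0 and 3 unique reads in the mycelium libraries and 534 and 193 in the young fruiting bodies. Fruiting bodies gave 239, 253 and 175 unique reads. It was thus at no more than 3 unique reads in any mycelium library and at 24.6 and 10.5 RPKM in young fruiting bodies, a rise of 7.19 ± 0.76 on the log2 scale (SE, adjusted p = 0.000432, edgeR). The total reads gave 6.78 ± 0.84 (SE, adjusted p = 0.000950, edgeR). With so few mycelium reads the size of these fitted changes depends on the prior count of the fit. The model has enough total reads for the rule only through its fruiting libraries. Its rise is thus not independent of how the group was chosen either.

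Among the falls, model 3091657 (2242 bp, 82.6% non-unique) stood at 10.2, 4.43 and 5.21 RPKM of unique reads in mycelium and at 0.131 and 0.0388 RPKM in young fruiting bodies. Its log2 fold change was -6.20 ± 1.73 (SE, adjusted p = 0.0310 by edgeR). Model 2913012 (2664 bp, 87.8% non-unique) stood at 23.6, 12.5 and 14.2 RPKM in mycelium and at 0.633 and 0.702 RPKM in young fruiting bodies, which gave -4.65 ± 1.43 on the log2 scale (SE, adjusted p = 0.0437 by edgeR). Each mycelium library lay above each young fruiting body library in both. On total reads the log2 fold changes were -5.93 ± 1.72 and -4.73 ± 1.48 (SE, adjusted p = 0.0363 and 0.0462, edgeR). In fruiting body replicates 1, 2 and 3 unique reads gave 0.0822, 0.0928 and 3.29 RPKM for model 3091657 and 0.300, 0.562 and 9.85 RPKM for model 2913012. Replicate 3 was thus nearer to mycelium than to the libraries of its own stage. Leaving out any mycelium or young fruiting body library ended the calls on unique reads, with adjusted p from 0.0604 to 0.159 for model 3091657 and from 0.0798 to 0.227 for model 2913012 (edgeR). On total reads these ranges were 0.0670 to 0.173 and 0.0809 to 0.229 (edgeR). The call of model 2913012 on total reads was also lost with upper-quartile factors (adjusted p = 0.0519, edgeR). Fruiting bodies against mycelium gave -2.52 and -2.23 on the log2 scale for unique reads (adjusted p = 0.126 and 0.142, edgeR). Without fruiting body replicate 3 they gave -6.18 and -5.24 (adjusted p = 3.28e-05 and 6.28e-06, edgeR).

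**Figure D3:**
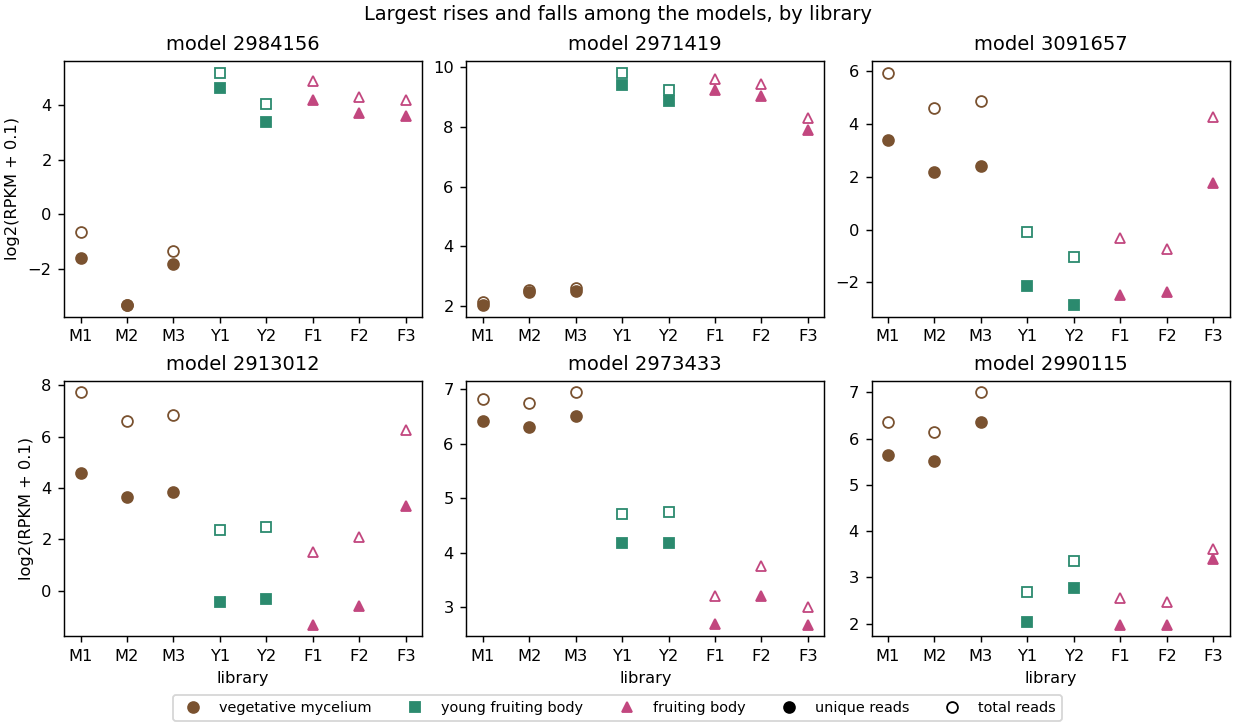
Level of the 6 models with the largest rises and falls in each library (M, mycelium; Y, young fruiting body; F, fruiting body, by replicate), as log2(RPKM + 0.1) of unique reads (filled) and total reads (open). Models 2971419 and 2984156 are high in all 5 fruiting libraries, and models 3091657 and 2913012 are high in mycelium and in fruiting body replicate 3.

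Fruiting bodies were set against mycelium for the whole course. On unique reads 36 of 176 models of the group rose and 18 fell (edgeR), which is 30.7% called, where 18.4% of all models rose and 13.4% fell, 31.8% in all. On total reads 41 of 185 rose and 19 fell, or 32.4%, where 18.4% and 13.4% of all models did, 31.7% in all. On both kinds of read the share of calls in the group lay near the background. Without fruiting body replicate 3 the count on unique reads was 82 of 175, with 45 rises and 37 falls, and 48.9% of all models were called. It was 31, 35 and 31 without mycelium replicates 1, 2 and 3 in turn and 34 without fruiting body replicate 2, with 20.8, 20.1, 19.6 and 20.4% of all models called. With the flowcell as a covariate 18 were called on unique reads and 25 on total reads, against 9.94 and 10.1% of all models. Fruiting body replicates 1 and 3 were alone on their flowcell, so this fit sets the level of the stage from replicate 2, and the other flowcell gives no comparison of its own.

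The largest rises were again those of models 2984156 and 2971419, with log2 fold changes of 6.91 ± 0.74 and 6.51 ± 0.44 on unique reads (SE, adjusted p = 0.000367 and 7.65e-05, edgeR) and of 6.55 ± 0.81 and 6.80 ± 0.44 on total reads (SE, adjusted p = 0.000745 and 7.04e-05, edgeR). Both comparisons share the mycelium libraries, so these are not separate evidence. Both models are in the group through their fruiting libraries, so these rises are not independent of how the group was chosen. Model 2973433 (1293 bp, 27.1% non-unique) stood at 85.5, 79.3 and 91.6 RPKM of unique reads in mycelium, at 18.0 and 18.1 RPKM at the young stage and at 6.36, 9.07 and 6.30 RPKM in fruiting bodies. The 3 stages did not overlap, and fruiting body replicate 3 lay with its stage. In fruiting bodies it changed by -3.56 ± 0.21 on the log2 scale (SE, adjusted p = 6.79e-05 by edgeR). Model 2990115 (1170 bp, 36.0% non-unique) stood at 49.7, 45.7 and 82.1 RPKM in mycelium, 4.01 and 6.77 RPKM at the young stage and 3.83, 3.84 and 10.4 RPKM in fruiting bodies. Every mycelium library was above every fruiting body library (-3.30 ± 0.47 on the log2 scale, SE, adjusted p = 0.00153 by edgeR). On total reads these falls were -3.49 ± 0.23 and -3.59 ± 0.41 (SE, adjusted p = 7.48e-05 and 0.000472, edgeR).

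Fruiting bodies were compared with young fruiting bodies to address the step to spore release. On unique and on total reads 0 models of the group were called (edgeR), as were 0 of all models, 0% in both. At an unadjusted p below 0.05 there were 14 of 176 on unique reads and 18 of 185 on total reads, against 987 and 996 of all models. DESeq2 called 1 model of the group on each kind of read, and 235 and 231 of all models. Without fruiting body replicate 3 edgeR also called 1 of the group on each, and 81 and 84 of all models. All 4 calls were of model 2973433, singled out here after its values were seen, with log2 fold changes on unique reads of -1.33 by DESeq2 (adjusted p = 9.27e-05) and -1.23 without replicate 3 (adjusted p = 0.0468, edgeR). With all 8 libraries edgeR gave -1.32 ± 0.21 (SE, adjusted p = 0.117).

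Across the 3 stages together 44 of 176 models differed on unique reads, or 25%, and 55 of 185 on total reads, or 29.7% (edgeR, test on both stage coefficients), against 28.7% of all models on both. These counts were 76 and 86 without fruiting body replicate 3, with 47.6 and 47.5% of all models called. Without mycelium replicates 1, 2 and 3 in turn they were 25, 26 and 23 on unique and 33, 31 and 31 on total reads, and without young fruiting body replicate 1 the first was 28. Of all models 17, 15.5, 16 and 19.8% were called on unique reads in these 4 fits, so the counts moved with the whole table.

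Unique and total reads were then set side by side, to see what the non-unique reads change. For the 176 models tested on both, the log2 fold change of total minus that of unique reads had a median of 0.0044 for young fruiting body against mycelium, with a range of -1.62 to 0.66. It had a median of 0.0016 for fruiting body against young fruiting body (-0.57 to 0.94) and of 0.018 for fruiting body against mycelium (-1.68 to 0.90). The size of the difference was below 0.2 in 138, 144 and 133 models in these comparisons. It was above 1 in 2, 0 and 3 models. In the models outside the group its median size was at most 0.00112 in each comparison. The median SE of a fold change on unique reads was 0.39 to 0.43. That SE is not the error of the difference, since both fold changes come from the same libraries and share the unique reads. For young fruiting body against mycelium the widest gap was in model 2944320 (83.5% non-unique), at 0.31 on unique and -1.32 on total reads, called on neither (adjusted p = 0.740 and 0.145, edgeR). It had 4 to 18 unique reads per library.

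**Figure D4:**
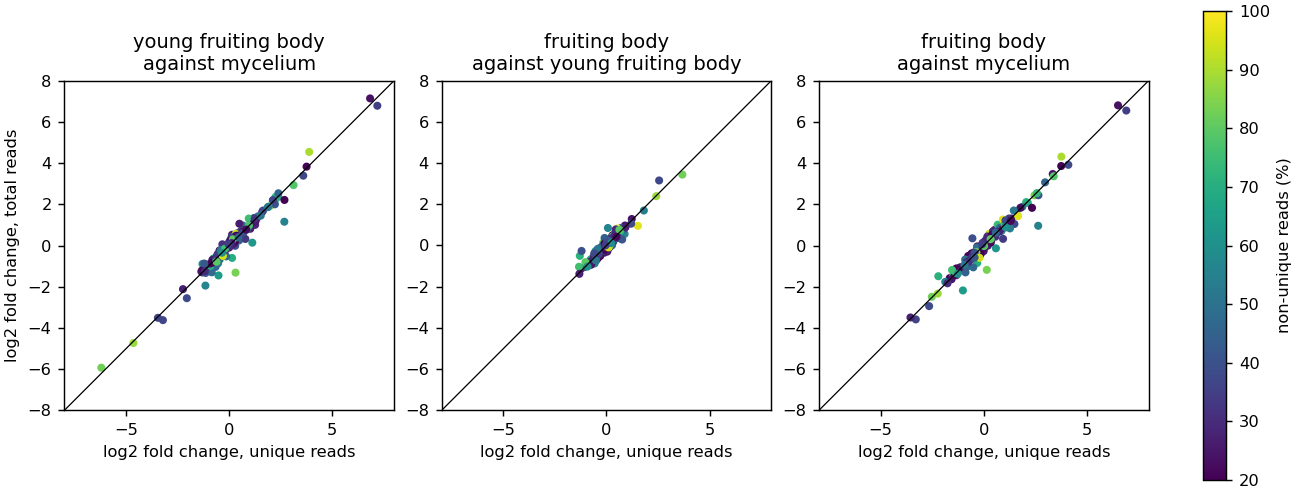
Log2 fold change of each of the 176 models tested on both kinds of read, from unique reads (horizontal) and total reads (vertical), in 3 comparisons, with the share of non-unique reads as colour and the line of equality drawn. Most points lie on the line, and the difference exceeds 1 in 2, 0 and 3 models from left to right.

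Total reads contain the unique reads, so their calls and fold changes are not independent, and the more so the lower the share. In young fruiting body against mycelium 37 models of the 176 were called on both, 1 on unique reads only and 5 on total reads only. In fruiting body against mycelium these numbers were 50, 4 and 6. This split was not counted over all models, so it has no background to be set against. No model was called in opposite directions. The 9 models tested on total reads alone added 3 calls in the first comparison and 4 in the second, and the filter on low counts had left these 9 out on unique reads. With no filter all 185 were tested on unique reads, and 37 and 54 were called, where 25.2 and 30.7% of all models were. Among the 63 models with a share under 30%, both kinds of read gave 15 calls in the first comparison and 21 in the second. Among the 61 with a share of 50% or more, unique reads gave 13 and 19 calls of 52 tested, and total reads 18 and 24 of 61. Of all models 26.0 and 31.8% were called on unique reads and 25.9 and 31.7% on total reads, and no test sets the bins against them.

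The 4 models with the highest shares were all among those 9. Model 2982444 (600 bp, 99.9% non-unique) had 5 unique reads in all libraries together. Its total reads gave 2.24, 3.98 and 2.23 RPKM in mycelium, 114 and 151 RPKM at the young stage and 205, 123 and 166 RPKM in fruiting bodies. The fruiting libraries lay above mycelium without overlap (5.53 ± 0.35 at the young stage and 5.83 ± 0.35 in fruiting bodies on the log2 scale, SE, adjusted p = 7.93e-05 and 6.87e-05, edgeR). A rise of these reads does not say which of the sequences that share them was transcribed. Model 3033825 (435 bp, 1 unique read) rose on total reads (adjusted p = 0.0223 and 0.00215 against mycelium, edgeR). Its mean was 3.29 ± 1.36 RPKM in mycelium, 9.77 ± 3.97 at the young stage and 18.2 ± 1.92 in fruiting bodies (SD, n = 3, 2 and 3). Without mycelium replicate 2 or 3 or young fruiting body replicate 1 the first of these calls was lost (adjusted p = 0.0782, 0.0764 and 0.202, edgeR). Model 1610181 (291 bp, 44 unique reads) rose from 19.5 ± 5.85 to 57.4 ± 17.5 and 69.6 ± 12.4 RPKM of total reads (SD, n = 3, 2 and 3; adjusted p = 0.0116 and 0.00344, edgeR), and without young fruiting body replicate 1 the first adjusted p was 0.113 (edgeR). Its unique reads numbered 5, 6 and 3 in mycelium, 8 and 11 at the young stage and 4, 5 and 2 in fruiting bodies. Model 3034419 (980 bp, 30 unique reads) stood at 17.7 ± 5.07, 20.1 ± 5.17 and 19.8 ± 4.22 RPKM of total reads in the 3 stages and was not called (adjusted p = 0.705 and 0.693 against mycelium, edgeR).

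Model 3024072 (1914 bp, 55.6% non-unique) had the largest difference among models called on 1 kind of read only. Its unique reads gave 1.61, 1.41 and 1.31 RPKM in mycelium, 5.17 and 13.25 RPKM at the young stage and 7.80, 17.7 and 1.40 RPKM in fruiting bodies, with replicate 3 at the level of mycelium. Its total reads gave 8.60, 7.44 and 9.17 RPKM in mycelium, 14.5 and 22.9 RPKM at the young stage and 15.2, 26.9 and 6.70 RPKM in fruiting bodies. On unique reads the young stage was higher by 2.68 ± 0.83 on the log2 scale (SE, adjusted p = 0.0442, edgeR) and on total reads 1.15 ± 0.48 (SE, adjusted p = 0.110, edgeR). In fruiting bodies it was 2.64 ± 0.78 (SE, adjusted p = 0.0326, edgeR) against 0.96 ± 0.44 (SE, adjusted p = 0.132, edgeR). The calls on unique reads were lost without any single mycelium library, with adjusted p from 0.0911 to 0.126, without young fruiting body replicate 1 or 2 in the first comparison (0.0842 and 0.238), without fruiting body replicate 1 (0.0569 and 0.0647) and without fruiting body replicate 2 in the second (0.120, all edgeR). Without fruiting body replicate 3 both comparisons were called on total reads as well (adjusted p = 0.00809 and 0.00322, edgeR). With only the 2 stages compared in the fit, total reads were called in the first comparison (adjusted p = 0.00438, edgeR).

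Model 3074493 (1585 bp, 63.8% non-unique) was called on total reads only. Its unique reads gave 1.01, 0.758 and 0.758 RPKM in mycelium, 0.509 and 0.659 RPKM at the young stage and 0.271, 0.630 and 0.310 RPKM in fruiting bodies. Its total reads gave 4.17, 2.81 and 2.32 RPKM in mycelium, 1.27 and 0.983 RPKM at the young stage and 0.424, 0.679 and 0.926 RPKM in fruiting bodies. Neither kind of read overlapped between mycelium and the fruiting stages. Total reads fell, with -1.45 ± 0.42 at the young stage and -2.18 ± 0.39 in fruiting bodies on the log2 scale (SE, adjusted p = 0.0368 and 0.00409, edgeR). Unique reads gave -0.52 ± 0.45 and -1.01 ± 0.41 (SE, adjusted p = 0.421 and 0.0939, edgeR). The first call on total reads was lost without any one of the mycelium or young fruiting body libraries and without fruiting body replicate 2 (adjusted p from 0.0560 to 0.174, edgeR). With the flowcell as a covariate the log2 fold changes were again -1.45 and -2.18, and both calls were lost (adjusted p = 0.0582 and 0.0700, edgeR). Without fruiting body replicate 2 unique reads were called in the second comparison too (adjusted p = 0.0471, edgeR). This model had 177 unique reads in all, so its counts per library were small.

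Whether the share of non-unique reads itself differed between stages was tested in 1031 models with at least 20 reads of each kind, 181 of them in the group, in a fit with the library and the kind of read as terms. The share differed across the 3 stages in 14 models (1.36%) and in 1 of the group (edgeR quasi-likelihood test). At an unadjusted p below 0.05 there were 133 models, 19 of them in the group. There were 64 calls, 9 of them in the group, without fruiting body replicate 3. Leaving out mycelium replicates 1, 2 and 3 in turn gave 9, 5 and 5, with 1, 0 and 0 in the group, and without fruiting body replicate 2 there were 14, with 2 in the group.

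The 1 call in the group was model 2971419, described above for its rise. Non-unique reads made up 7.50, 5.56 and 7.04% of its reads in mycelium, 24.9 and 22.7% at the young stage and 22.6, 23.3 and 25.2% in fruiting bodies. Mycelium lay below every fruiting library, replicate 3 included (adjusted p = 0.00433, edgeR). In mycelium these percentages rest on 3, 6 and 5 non-unique reads, against 838 to 3506 in the fruiting libraries. The model thus met the limit of the rule through its fruiting libraries, and no mycelium library reached that limit. Its place in the group, and so its count as a call of the group, is not independent of the stages compared. Without mycelium replicate 2 or 3 the adjusted p was 0.134 and 0.0587 (edgeR).

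Model 3024072, whose stage means lay further apart, was not called. It had 81.4, 81.1 and 85.9% non-unique reads in mycelium, 64.4 and 42.4% at the young stage, and 49.1, 34.7 and 79.2% in fruiting bodies. Fruiting body replicate 3 again lay near mycelium. In model 3002795, also not called, the share was 31.0 to 33.6% in mycelium, 37.7 and 39.0% at the young stage and 41.4, 38.3 and 23.8% in fruiting bodies, with replicate 3 the lowest of all libraries. In some models the share hardly moved. Model 2913012, whose level fell to a small part of that in mycelium, kept a share of 86.7 to 89.0% in all 8 libraries, and model 7453 one of 95.3 to 97.7%. Of the 76 models with at least 100 total reads in every library, the range of the share over libraries was below 5 percentage points in 17 and above 20 in 7, with a median of 8.56.

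**Figure D5:**
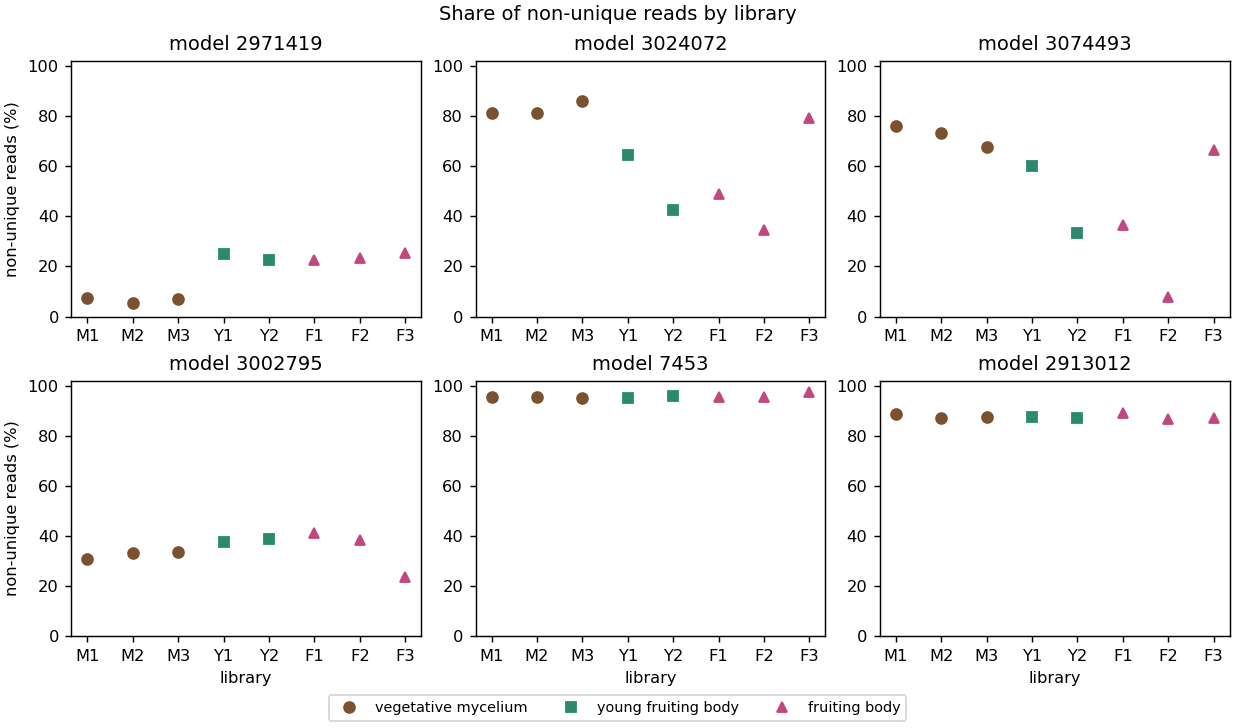
Non-unique reads in percent of total reads in each library (M, mycelium; Y, young fruiting body; F, fruiting body, by replicate) for 6 models of the group. Model 2971419 lies at 5.56 to 7.50% in mycelium and 22.6 to 25.2% in fruiting libraries, models 3024072 and 3074493 show fruiting body replicate 3 near mycelium, and models 7453 and 2913012 are level.

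For the 5 models with the most reads or a called share, the model with the most similar non-unique counts over the 8 libraries was looked up among 631 models with at least 100 such reads. The root mean square difference of log2(non-unique reads + 1) to it was 0.46 for model 2973697, 0.69 for model 3002795, 1.11 for model 7453, 0.36 for model 6737 and 1.81 for model 2971419. The second most similar models lay at 0.46, 0.71, 1.24, 0.36 and 2.02, so for these 5 no single counterpart stood out. Over all 152 models of the group with at least 100 non-unique reads the median distance to the nearest profile was 0.41. In 3 models, singled out after the values were seen, the second profile lay over 2 times farther than the nearest, and each was in turn the nearest of its counterpart. Model 3091657 lay at 0.74 from model 1416977 with the second at 1.81, model 2990115 at 0.49 from model 3008814 with the second at 1.07, and model 2982444 at 0.84 from model 2982432 with the second at 1.74. Non-unique reads of model 2990115 numbered 622, 1008 and 1136 in mycelium, 74 and 93 at the young stage and 38, 46 and 40 in fruiting bodies. Those of model 3008814 numbered 503, 1128 and 698, 105 and 119, and 35, 84 and 53 in the same libraries. Whether the models of these pairs share sequence was not tested.

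The authors' deposited matrix of log2 RPKM holds all 185 models. For the 76 of them with at least 100 total reads in every library, its values matched length-scaled total reads (log2, 1 offset fitted per library) to within 0.0064. Against length-scaled unique reads they were higher by 0.0223 to 8.45, with a median of 0.68. These values thus track total reads, not unique reads.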

How the data were processed

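Polyadenylated RNA of 8 libraries was sequenced from TruSeq RNA v2 preparations, a kit that does not mark strand, per the labels' protocols. Each library has a deposited table of 13602 models with raw read counts, unique and total, per the file headers, in which every model is listed as its own reference sequence. A TPM column deposited by the authors was not used, and their RPKM column is 0 throughout. Tools listed without a role in the submitters' processing notes are limma 3.18.13, edgeR 3.4.2 and R 3.0.2. The mapper, how it placed reads that match several models, and the genome release are not given in the sources used here. The authors' series matrix was read as log2 RPKM, from its values.

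Non-unique reads are total minus unique reads. The main test was edgeR 4.0.16 in R 4.3.3 (filterByExpr by stage, TMM factors, robust quasi-likelihood fit) on all 8 libraries with stage as the only term. It was fitted once on the unique and once on the total reads of the whole table, with p-values adjusted over all models tested. The SE of a log2 fold change is its size over the square root of F. The share test used 2 columns per library (unique and non-unique reads) with library, kind of read and kind of read by stage as terms. Both fits were checked on simulated counts. RPKM values per library use model length and TMM-scaled library size. A share of exactly 20% counted as inside the rule.

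Alternatives were DESeq2 1.42.0, upper-quartile factors, no filter, the replicate number, the flowcell, only the stages compared, each library left out, and other limits of the rule. The models and tests were chosen with earlier results of these data known. Named models were, in the group, the 2 largest rises and falls per comparison among called models without overlap and with at least 1 RPKM in the higher stage. Added were the 4 with the most reads, the 4 with the highest share, the 2 nearest the limit on either side, the 2 per comparison called on 1 kind of read with the largest difference, and those called in the share test. The replicate numbers did not pair the libraries by correlation of their deviations from stage means, which ranged from -0.278 to 0.196 for equal numbers on unique reads, and the labels tie them to no batch. Intervals for counting error are not given, since reads carry no molecular identifiers.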

Additional observations from a re-analysis of the deposited data

How the results depend on the processing

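Of 93 counts and sums under alternatives other than leaving out 1 library, 67 stayed within 1.5 times, or within 1 SD for sums. With the replicate number as a block, calls in young fruiting body against mycelium were 25 on unique and 28 on total reads. Of all models 17.7 and 17.6% were called there. Calls of the share test were 22, with 2 in the group. The block also ended named calls against mycelium (edgeR). In fruiting bodies the adjusted p was 0.0689 for model 7453 on unique reads. For model 3024072 on unique reads it was 0.134 at the young stage and 0.0619 in fruiting bodies. At the young stage it was 0.0860 for model 3074493 on total reads, and 0.0568 on unique and 0.0567 on total reads for model 2913012. The block also brought calls on total reads in fruiting body against mycelium. They were -4.38 for model 3091657 and -4.05 for model 2913012 on the log2 scale (adjusted p = 0.048 and 0.049, edgeR). The samples share only a number, and the block changed no other count by over 1.5 times. With the flowcell covariate, calls in fruiting body against mycelium were 18 and 25, where 9.94 and 10.1% of all models were called. Across the 3 stages they were 26 and 30, where 17.6 and 17.5% of all models were called. In the share test 3 models of the group were called, a count that is not set here against all models of that test. DESeq2 gave 1 and 1 in fruiting body against young fruiting body. With a limit of 10% there were 313 models, 304 of them tested on unique reads, and calls were 68 and 75 (young fruiting body against mycelium), 89 and 97 (fruiting body against mycelium) and 76 and 87 (3 stages). With a limit of 50% there were 61, of which 52 were tested on unique reads, and calls were 13 and 18, 19 and 24, and 14 and 22. Of all models 26.0 and 25.9%, 31.8 and 31.7%, and 28.7% on both were called in these comparisons. In percent of non-unique rather than all gene reads, the sums differed by 0.0951, 1.77 and 1.86 percentage points in the 3 comparisons. Where no construction of the alternative shows it, the cause was not tested. With single libraries left out, calls on unique and total reads ranged from 11 to 55 and 14 to 67 in young fruiting body against mycelium and from 0 to 1 on both in fruiting body against young fruiting body. They ranged from 31 to 82 and 41 to 90 in fruiting body against mycelium, from 23 to 76 and 31 to 86 across the stages, and from 5 to 64 in the share test, with 0 to 9 in the group. These counts moved with the whole table. For the young stage against mycelium, 8.37 to 41.2% of all models were called on unique reads and 8.44 to 41.1% on total reads. For fruiting bodies against mycelium these shares were 19.6 to 48.9% and 19.5 to 48.7%. Across the stages they were 15.5 to 47.6% and 15.5 to 47.5%. The top of each of these ranges came without fruiting body replicate 3. The sums differed by 0.0277 to 0.0529, 0.0108 to 0.0308 and 0.0508 to 0.0760 percentage points, and the median difference of total and unique fold changes by -0.0027 to 0.014, -0.0089 to 0.014 and 0.0085 to 0.022. Of the named models, 2 that were not called changed sign. Model 3002795 in young fruiting body against mycelium gave 0.075 and 0.25 on unique reads without mycelium replicate 3 and young fruiting body replicate 1, in a range of -0.71 to 0.25 over the libraries left out. On total reads it gave 0.010, 0.21 and 0.39 without mycelium replicate 2, mycelium replicate 3 and young fruiting body replicate 1, in a range of -0.61 to 0.39. Model 3034419 on total reads gave -0.054 and -0.10 in young fruiting body against mycelium without mycelium replicate 2 and young fruiting body replicate 1 (range -0.10 to 0.45). In fruiting body against mycelium it gave -0.19 with the flowcell covariate and -0.077 without mycelium replicate 2 (range -0.077 to 0.32 over the libraries left out). Models with under 20 unique reads over the 8 libraries did not enter the share test, and so few reads can say little about stage.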
